A study of Mus musculus with 8 samples.

Results

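The genes examined were 10 that control, or are controlled by, the transcription factor NRF2: Nfe2l2, which encodes NRF2, Keap1, Cul3, Btrc, Nfe2l1, Bach1, the small MAF genes Mafg, Maff and Mafk, and Osgin1. They were chosen by symbol from a table of 55492 genes, each symbol stood on 1 row, and all 10 passed the filter that left 13531 genes for testing. RNA was sequenced from the mouse melanoma line YUMM5.2 (strain given as C57B/6J) in 8 libraries, of which 4 were labelled DMSO, the solvent control, and 4 were labelled 4-OI, described by the submitters as a cell-permeable itaconate. Cells were in culture for 20 h under either condition, the labels name no genetic difference between the groups, and the sources used here state no dose. The labels speak of separate experiments but not of separate cultures, so the p-values rest on the spread among these libraries, part or all of which may be technical.

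NRF2 is made continuously and destroyed continuously. KEAP1, a cysteine-rich sensor protein, holds it against the CUL3 ubiquitin ligase, and electrophiles that modify KEAP1 let newly made NRF2 reach the nucleus. There it pairs with a small MAF protein on antioxidant response elements, sites from which the repressor BACH1, also paired with a small MAF, is displaced. Itaconate and its esters are electrophiles known to modify KEAP1.

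The libraries held between 22962963 and 31361677 counts. The melanocyte markers Sox10, Mlana, Tyr, Dct and Tyrp1 were each below 0.1 TPM (a transcript's share of all transcripts in a library, which takes its length into account) on average in both groups, and Mitf had 2.29 TPM with DMSO and 3.45 with 4-OI, so apart from Mitf the genes that define pigment cells were nearly absent from this melanoma line. Of 4 neural crest and dedifferentiated melanoma markers, Axl stood at 388 TPM with DMSO and 342 with 4-OI, Fosl1 at 136 and 177, Sox9 at 10.5 and 8.79, and Ngfr below 0.1 in both. Of the 6 leukocyte markers, Adgre1 was at 0 in every library and Cd68 was the single one above 1 TPM. The 5 fibroblast markers summed to 56.0 to 58.2 TPM with DMSO and 48.1 to 50.1 with 4-OI, with Lum at 0, and their part in the results was not tested.

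Of the 10 genes, Osgin1, Mafg, Bach1, Keap1 and Btrc were higher with 4-OI, Nfe2l2 was lower, and Cul3, Nfe2l1, Maff and Mafk were not called by edgeR's quasi-likelihood test at a Benjamini-Hochberg adjusted p under 0.05. Across all genes tested, 19.3% were called higher and 19.6% lower, or 38.8% in either direction, so a call alone is a common event in this comparison. The median log2 fold change of the 10 genes was 0.08, beside 0.00 over all genes tested. Their median absolute log2 fold change was 0.15, beside 0.12. The CPM values (counts scaled to the size of each library) of the groups did not overlap for 6 of the 10 genes, against 35.4% of all genes tested, and the TPM values for 5, against 28.1%. In bulk RNA, a change in every cell and a change in a part of the cells cannot be told apart. The calls differ in size: Osgin1 changed by 3.86-fold and ranked 44 of the 13531 genes by absolute change, Mafg ranked 1383 and Bach1 ranked 1760, whereas Keap1, Btrc and Nfe2l2 ranked from 4721 to 6296.

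**Figure D1:**
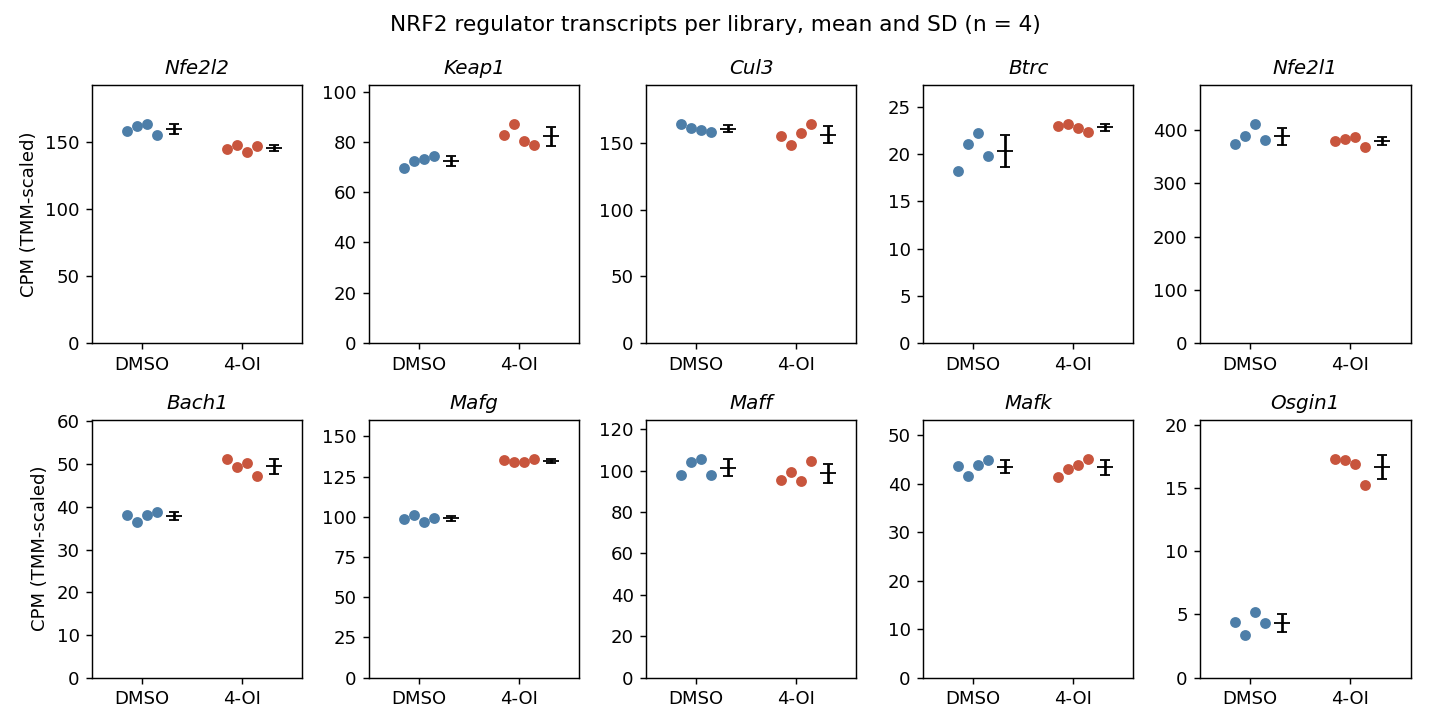
CPM, scaled by TMM factors, of the 10 transcripts in each of the 4 DMSO libraries (blue) and 4 4-OI libraries (red), each panel with its own axis from 0; black marks are the mean and SD. The groups do not overlap for Nfe2l2, Keap1, Btrc, Bach1, Mafg and Osgin1, and they overlap for Cul3, Nfe2l1, Maff and Mafk.

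**Figure D2:**
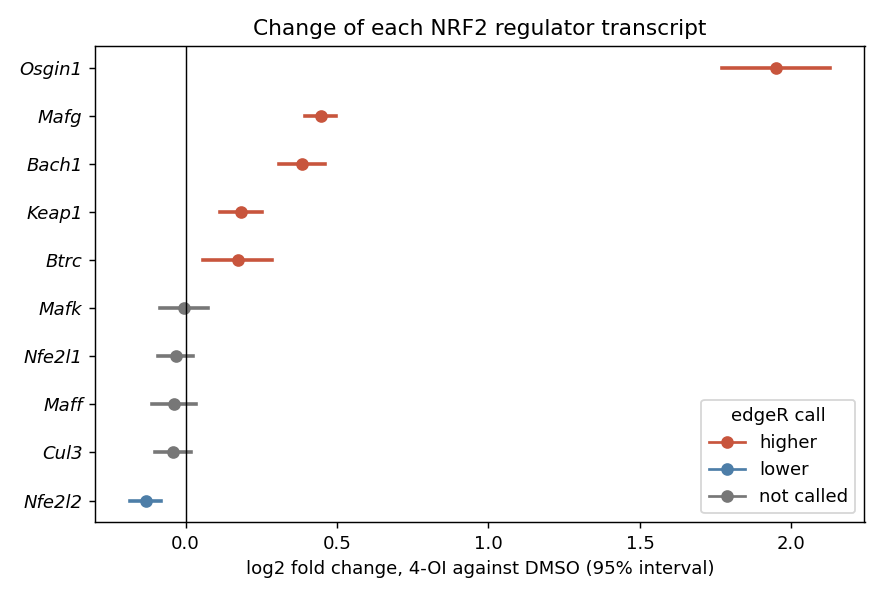
Log2 fold change of 4-OI against DMSO for each gene with its 95% interval from edgeR, coloured by call. Osgin1 lies at 1.95, Mafg and Bach1 near 0.4, Keap1 and Btrc near 0.2, and the 4 genes not called have intervals that span 0.

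Nfe2l2 (chromosome 2, 75675513 to 75704641, minus strand, GRCm38) was slightly lower. It had 158, 162, 163 and 155 CPM in the DMSO libraries and 145, 148, 143 and 147 CPM in the 4-OI libraries. Every 4-OI library lay below every DMSO library, as was the case for 18.0% of all genes tested. In log2 terms the difference was -0.13 (standard error 0.03, 95% interval from -0.18 to -0.08, edgeR adjusted p = 0.000261), which is a change of -8.69%. The transcript of the factor fell while 18 of 18 transcripts in a list of NRF2 and BACH1 target genes were called higher. Their median log2 fold change was 1.26. Of all genes tested, 19.3% were called higher. The list was chosen with earlier results of these data known, so its count is not an independent readout. Srxn1 (2.79), Nqo1 (2.73) and, at low level, Slc40a1 (2.94) had the largest changes of that list; Slc40a1 was not called by limma on TPM or FPKM.

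The promoter windows of these genes, 250 bases before to 50 after each RefSeq start site (GRCm38.p6), were searched on both strands for the core of the antioxidant response element, TGACNNNGC, and for the related AP-1 and NF-E2 type site, TGAGTCA. Of the 10 genes, 9 had at least 1 window. The element core was found in 4 of those 9 genes (Nfe2l2, Mafg, Maff and Mafk), against 14.0% of the 27025 genes in the table. The second site was found in 1 (Osgin1), against 5.95%. Some genes had several windows. By window, the core stood in 4 of 15, against 12.4% of all windows, and the second site in 1 of 15, against 5.2%. The match in Mafk overlaps an annotated exon. The matches stood in windows of genes that rose, fell and were not called alike. That of Nfe2l2 lies 240 to 232 bases before the start and is shown with its flanks because this is the gene of the factor that binds such elements. Capitals mark the match.
Nfe2l2, chr2:75704875-75704913, minus strand: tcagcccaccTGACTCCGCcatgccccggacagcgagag

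Keap1, the sensor that marks NRF2 for destruction, was higher. Keap1 (chromosome 9, 21229730 to 21239361, minus strand) had 69.8, 72.3, 73.3 and 74.3 CPM with DMSO and 82.8, 87.1, 80.3 and 78.8 CPM with 4-OI. All 4-OI libraries lay above all DMSO libraries, as for 17.4% of genes tested. Keap1 thus rose by 13.5%, a log2 fold change of 0.18 (standard error 0.03, interval from 0.11 to 0.25, edgeR adjusted p = 0.000223). An antisense gene on the opposite strand, Gm16754, had at most 45 counts assigned to it in any library, against 1671 or more for Keap1. Antisense reads assigned to Keap1 itself would not show in that count, and their part was not tested. Neither motif was found in the Keap1 window.

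Cul3 (chromosome 1, 80264923 to 80340480, minus strand), the scaffold of the ligase that KEAP1 recruits, was not called. It had 164, 162, 160.1 and 159 CPM with DMSO and 156, 149, 158 and 164 CPM with 4-OI. The ranges overlapped, and the log2 fold change was -0.04 with an interval from -0.10 to 0.02 (edgeR adjusted p = 0.284). Corrected for the GC content and length of transcripts it was -0.07 and was called lower (edgeR adjusted p = 0.00815). In Cul3, transcripts stood at 96.5 ± 5.71 TPM with DMSO and 93.0 ± 1.05 TPM with 4-OI (SD, n = 4), more than those of Keap1 in each library: the Cul3 to Keap1 ratio of TPM went from 2.699 ± 0.192 to 2.29 ± 0.13 (SD, n = 4).

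Btrc encodes beta-TrCP, the substrate receptor of a second ligase that destroys NRF2 after phosphorylation by GSK3. Btrc (chromosome 19, 45363734 to 45530013, plus strand) had 18.3, 21.03, 22.2 and 19.8 CPM with DMSO and 23.0, 23.2, 22.8 and 22.4 CPM with 4-OI. The groups did not overlap, but the highest DMSO library (22.2) and the lowest 4-OI library (22.4) almost met. Btrc was called higher at a log2 fold change of 0.17 (standard error 0.05, interval from 0.06 to 0.29, edgeR adjusted p = 0.0161). This call rested on single libraries: without DMSO replicate 1 the log2 fold change was 0.13 (edgeR adjusted p = 0.0642) and without DMSO replicate 4 it was 0.16 (edgeR adjusted p = 0.0549). It also ended on the TPM scale with a pseudocount of 1, where limma gave 0.16 (adjusted p = 0.149).

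Of 10 genes of the CUL3 ligase and its neddylation cycle, 2 were higher and 8 not called, near the 19.3% higher among all genes tested, with a median log2 fold change of 0.05. That count was 4 without 4-OI replicate 2 or without the filter on low counts, and 1 with limma on TPM or FPKM. Nae1, a subunit of the enzyme that activates the ubiquitin-like protein NEDD8, rose by 0.13 on the log2 scale and Ube2m, the NEDD8-conjugating enzyme, by 0.11. Among 7 genes listed with the beta-TrCP arm, the kinase genes Gsk3a (-0.07) and Gsk3b (0.02) were not called. The 1 higher gene was the SCF ligase adaptor Skp1a (0.20). The 1 lower gene was Syvn1 (-0.21), which encodes HRD1, a separate ubiquitin ligase of the endoplasmic reticulum. These 2 calls of 7 are again near the background of 38.8%, and 2 of the 7 were lower without DMSO replicate 2 or without 4-OI replicate 2, and 0 with limma on TPM or FPKM. Among 10 genes of proteins that bind KEAP1, 2 rose, 1 fell and 7 were not called, a share of calls near the background too. Sqstm1, the autophagy receptor p62 that sequesters KEAP1, stood far from the rest, rising from 674 to 1255 CPM (0.90 in log2, edgeR adjusted p = 5.51e-15). Ikbkb, an inflammatory kinase, rose by 0.20, and Mcm3, a subunit of the replicative helicase, had a log2 fold change of -0.14, which limma on TPM or FPKM did not call.

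Nfe2l1 encodes NRF1, the relative of NRF2 that resides in the endoplasmic reticulum membrane and, once released, drives proteasome genes. It was the most abundant of the 10 transcripts by level per length, at 217 ± 15.4 TPM with DMSO and 208 ± 8.79 TPM with 4-OI (SD, n = 4). Nfe2l1 (chromosome 11, 96817414 to 96829968, minus strand) had 374, 389, 411 and 382 CPM with DMSO and 379, 384, 387 and 369 CPM with 4-OI. The ranges overlapped, and the interval of the log2 fold change of -0.03 ran from -0.09 to 0.03 (edgeR adjusted p = 0.386). Of 10 genes listed for the processing, modification or turnover of NRF1, 2 were higher and 8 not called. That is near the 19.3% higher among all genes tested, and the median was 0.01. The 2 higher were Vcp, the segregase p97 that pulls proteins from the membrane (0.22, edgeR adjusted p = 1.08e-07), and Ogt, the O-GlcNAc transferase (0.10). The call of Ogt ended with limma on TPM or FPKM. Ddi2, the protease that cuts NRF1, had a log2 fold change of -0.00 and Ngly1, which removes its sugars, 0.08; neither was called.

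Bach1, the heme-regulated repressor that competes with NRF2, was higher. Bach1 (chromosome 16, 87698945 to 87733346, plus strand) had 38.1, 36.5, 38.1 and 38.7 CPM with DMSO and 51.2, 49.3, 50.2 and 47.2 CPM with 4-OI. The lowest 4-OI library (47.2) stood well above the highest DMSO library (38.7). This is 30.5% more transcript, or 0.38 in log2 (standard error 0.04, interval from 0.31 to 0.46, edgeR adjusted p = 6.73e-08). Its promoter window, with 69.7% G and C, held neither motif.

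Of 7 genes of heme metabolism and BACH1 turnover, 5 were higher and 2 not called, beside 19.3% higher among all genes tested. Hmox1, the heme oxygenase that BACH1 represses, rose from 36.8 to 284 CPM (log2 fold change 2.95). Alas1, the first enzyme of heme synthesis, rose from 18.1 to 37.0 CPM (1.04), and Xpo1, the nuclear exporter that carries BACH1 out of the nucleus, from 348 to 472 CPM (0.44). Rbck1 (0.09) and Fbxl17 (0.13), genes of ubiquitin ligase components, were also called, while Fbxo22 (0.01), whose product marks BACH1 for destruction, was not. The call of Fbxl17 held in 7 of 17 alternatives; 5 of the 8 fits that dropped a single library lost it, namely DMSO libraries 1 and 2 and 4-OI libraries 1, 2 and 3 (highest adjusted p = 0.123 over the edgeR, DESeq2 and limma alternatives).

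The small MAF genes encode short basic leucine zipper proteins without an activation domain, which serve NRF2, NRF1 and BACH1 as DNA-binding partners. Only Mafg of the 3 was called. Mafg (chromosome 11, 120625117 to 120633600, minus strand) had 98.5, 101, 96.9 and 99.1 CPM with DMSO and 135, 134, 134 and 136 CPM with 4-OI. These are 2 narrow bands with a wide gap between them. Mafg rose by 36.2%, a log2 fold change of 0.45 (standard error 0.02, interval from 0.40 to 0.50, edgeR adjusted p = 1.44e-11). Sirt7, a deacetylase gene that overlaps Mafg on the same strand, had 19.1 CPM with DMSO and was not called (0.13 in log2, edgeR adjusted p = 0.0555).

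Maff (chromosome 15, 79346621 to 79359076, plus strand), a stress-inducible member in many cells, had 98.0, 104, 106 and 98.0 CPM with DMSO and 95.5, 99.4, 95.03 and 105 CPM with 4-OI, and its log2 fold change was -0.04 with an interval from -0.11 to 0.03 (edgeR adjusted p = 0.409). Mafk (chromosome 5, 139791513 to 139802653, plus strand), the third member, had 43.7, 41.7, 43.8 and 44.9 CPM with DMSO and 41.5, 43.1, 43.8 and 45.1 CPM with 4-OI, a log2 fold change of -0.01 with an interval from -0.08 to 0.07 (edgeR adjusted p = 0.931). In both genes the libraries of the groups were interleaved. Neither interval reaches the lower bound of that of Mafg, although the difference between the genes was not itself tested.

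The element core in Mafg lies 222 to 214 bases before the start on the opposite strand, and that in Maff 112 to 104 bases before it. These stretches show a member that rose beside one that was not called, both with a match. For Mafg the stretch ends where an annotated exon begins. Capitals mark the match in either orientation.
Mafg, chr11:120633601-120633797, minus strand: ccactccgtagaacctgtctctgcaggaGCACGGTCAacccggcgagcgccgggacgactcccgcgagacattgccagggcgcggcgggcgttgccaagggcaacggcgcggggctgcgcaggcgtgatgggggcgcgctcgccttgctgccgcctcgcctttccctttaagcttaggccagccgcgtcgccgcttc
Maff, chr15:79346489-79346537, plus strand: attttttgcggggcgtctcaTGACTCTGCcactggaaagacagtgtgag

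By level per length, Maff was the leading small MAF with DMSO and Mafg closed most of that gap with 4-OI. Mafg stood at 48.5, 51.2, 46.9 and 48.1 TPM in the DMSO libraries and 78.1, 76.9, 71.2 and 72.0 TPM in the 4-OI libraries. Its share of the summed small MAF TPM went from 31.3% ± 1.01 to 41.5% ± 1.61, that of Maff from 53.8% ± 1.14 to 45.5% ± 1.26, and that of Mafk from 14.96% ± 0.73 to 13.0% ± 0.50 (SD, n = 4). The sum of the 3 was 152 to 160 TPM with DMSO and 173 to 183 TPM with 4-OI. The shares are a description of these libraries, and no test was made of them. They also depend on the estimated length of Mafg, whose ratio of group means was 1.53 in TPM and 1.36 in CPM.

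**Figure D3:**
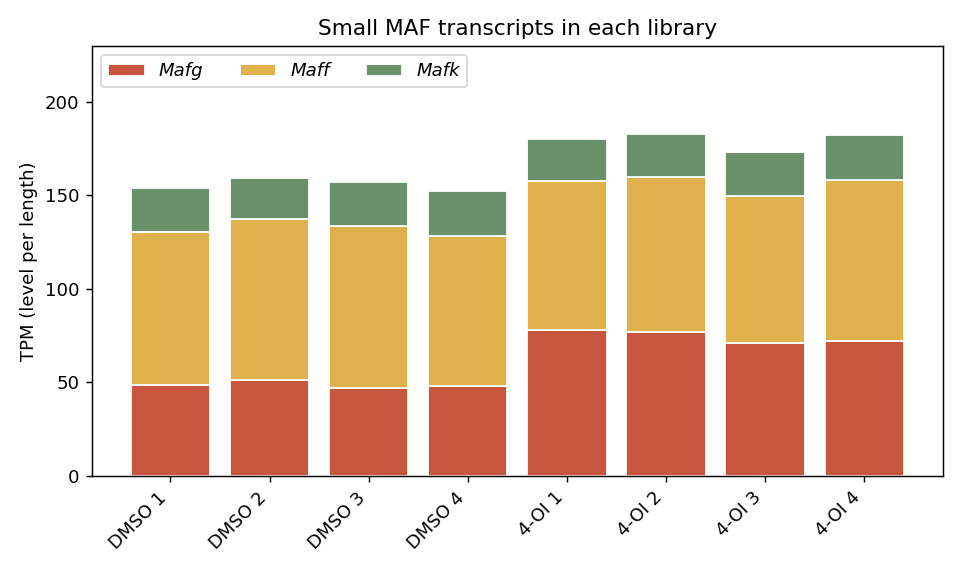
Stacked TPM of Mafg, Maff and Mafk in each of the 8 libraries. The Mafg part is taller in each 4-OI library (71.2 to 78.1 TPM) than in each DMSO library (46.9 to 51.2 TPM), and the parts of Maff and Mafk are of like height in both groups.

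For Mafg the deposited units gave different sizes: the ratio of group means was 1.36 in CPM and 1.53 in TPM. The authors' counts and FPKM (a fragment count scaled to transcript length and library size) imply a length for each gene in each library. It is the length that FPKM divides by, a mean over the gene's transcripts, weighted by the estimated mix. That length can be shorter than the annotated one, so implied and annotated lengths are not directly comparable. For Mafg the implied length was 2812, 2698, 2807 and 2780 bases with DMSO and 2381, 2408, 2569 and 2589 bases with 4-OI. All 4-OI values lay below all DMSO values. Of the 11026 genes with at least 1 FPKM in every library, 3.02% showed such a separation in either direction. There are 70 ways to divide 8 libraries into groups of 4, and chance alone would separate about this share. Mafg has 5 annotated transcripts, one of 4923 bases and the others of 412 to 1104 bases. For Nfe2l2, Maff and Mafk, the steadiest of the genes examined, the longest and shortest implied lengths differed by no more than 1.01-fold. The median over all genes with at least 1 FPKM in every library was 1.08-fold. Keap1 stood at 1.03-fold, Bach1, Nfe2l1, Cul3 and Btrc at 1.09- to 1.12-fold, and Osgin1 at 1.4-fold. By this measure Mafg stood at percentile 76.8, so the size of its spread was not exceptional. Whether the Mafg shift reflects transcript use or the estimate was not tested.

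Of 7 genes of other factors of the same families, 3 could be tested. The large MAF gene Maf had a log2 fold change of -0.27 and was called lower (17.2 to 14.3 CPM, edgeR adjusted p = 0.000445); Bach2 (-0.08) and Mafa (0.29) were not called, at 4.25 and 1.20 CPM with DMSO. Nfe2, Nfe2l3 and Nrl were among those below the filter, with at most 8 counts in any library. In 10 coactivator and corepressor genes, 1 was higher, the retinoid X receptor gene Rxra (0.28). Another 3 were lower, among them the retinoic acid receptor gene Rara (-0.28) and the Mediator subunit gene Med16 (-0.12). This share of calls is near the 38.8% of all genes tested that were called in either direction. The count of lower genes was 2 in 13 of 17 alternatives. The call of Med16 held in 3 of 17 alternatives and, among those that left out 1 library, only without DMSO replicate 3. Crebbp and Ep300, the acetyltransferases that NRF2 recruits, had log2 fold changes of -0.07 and 0.01 and were not called.

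Osgin1, a growth-inhibitory oxidative stress gene and a known NRF2 target, changed most. Osgin1 (chromosome 8, 119434124 to 119446256, plus strand) had 115, 82, 118 and 134 counts in the DMSO libraries and 448, 486, 508 and 475 counts in the 4-OI libraries. In CPM these were 4.38, 3.41, 5.18 and 4.29 with DMSO and 17.3, 17.2, 16.9 and 15.2 with 4-OI. Each treated library lay far above each control library. In log2 the difference was 1.95 (standard error 0.09, interval from 1.77 to 2.13, edgeR adjusted p = 3.43e-13). Of all genes tested, 0.990% were called higher by at least 2-fold. Its paralog Osgin2 was not called (-0.03 in log2, edgeR adjusted p = 0.794).

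The AP-1 and NF-E2 type match in Osgin1 lies 97 to 91 bases before the RefSeq start, and is shown because this gene had the largest change of the 10. The stretch lies inside the annotated gene, since 1 annotated transcript starts further upstream, and it ends where the next annotated exon begins. Capitals mark the match. TGACNNNGC, the only form of the element core that was searched, was not found in this window.
Osgin1, chr8:119436897-119437117, plus strand: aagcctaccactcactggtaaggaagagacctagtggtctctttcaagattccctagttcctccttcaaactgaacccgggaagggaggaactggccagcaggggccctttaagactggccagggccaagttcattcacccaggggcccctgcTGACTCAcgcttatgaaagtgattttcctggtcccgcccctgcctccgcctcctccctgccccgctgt

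In TPM, Osgin1 varied more among libraries of 1 group than in counts: it had 3.52, 2.73, 5.69 and 3.35 TPM with DMSO and 17.5, 17.1, 18.2 and 12.1 TPM with 4-OI. DMSO replicate 3 and 4-OI replicate 4 stood apart in opposite directions. The implied length was 1720, 1710, 1235 and 1730 bases with DMSO and 1363, 1389, 1267 and 1729 bases with 4-OI, so these 2 libraries carried lengths near those of the other group. The groups overlapped in length, but not in counts, CPM or TPM.

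**Figure D4:**
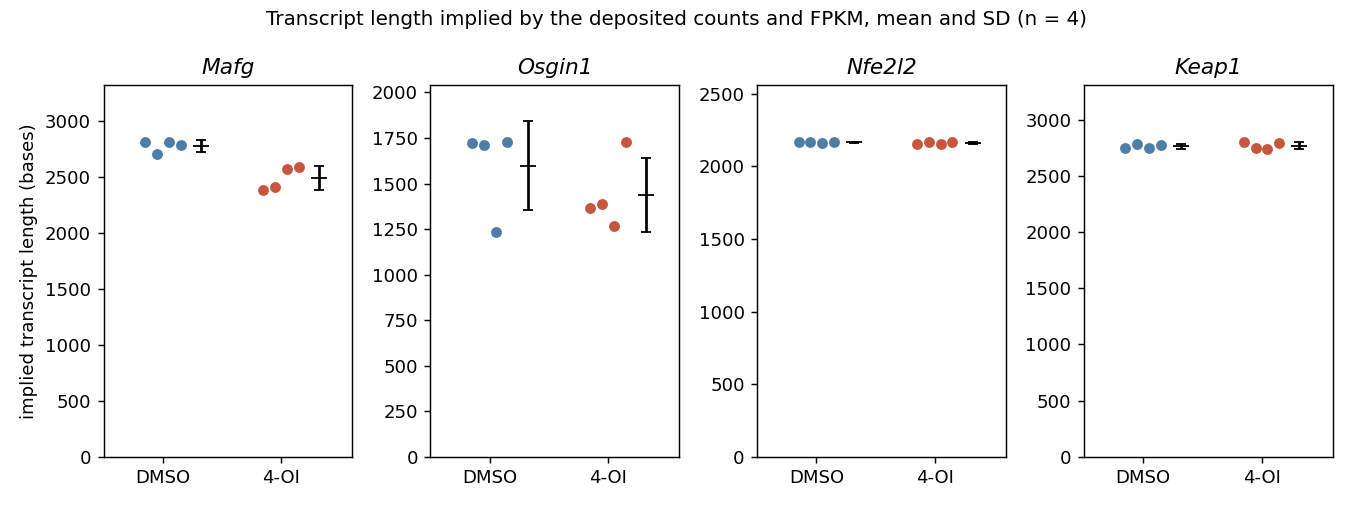
Transcript length implied by the deposited counts and FPKM, in bases, for Mafg, Osgin1, Nfe2l2 and Keap1 in each library, with mean and SD (n = 4) in black and axes from 0. Mafg is shorter in each 4-OI library, Osgin1 has 1 library per group at the other group's length, and Nfe2l2 and Keap1 are level.

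In the order of levels per length with DMSO, Nfe2l1 (217 TPM) came first, then Nfe2l2 (101), Cul3 (96.5), Maff (83.8), Mafg (48.7), Keap1 (35.8), Mafk (23.3), Btrc (13.2), Bach1 (10.02) and Osgin1 (3.82). Among these neighbours only the libraries of Nfe2l2 and Cul3 overlapped. With 4-OI the order was the same apart from Cul3 (93.0) with Nfe2l2 (92.5), whose libraries overlapped again, and Osgin1 (16.2), which stood above Btrc (14.8) and Bach1 (12.8) with libraries overlapping those of both.

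The balance of regulators to Nfe2l2 within each library moved accordingly. The Keap1 to Nfe2l2 ratio of TPM was 0.348, 0.348, 0.354 and 0.373 with DMSO and 0.438, 0.465, 0.444 and 0.416 with 4-OI. The Bach1 to Nfe2l2 ratio was 0.0997 ± 0.0058 and 0.138 ± 0.0086, and the ratio of summed small MAF to Nfe2l2 was 1.55 ± 0.02 and 1.94 ± 0.02 (SD, n = 4). In these 3 ratios no 4-OI library overlapped a DMSO library. That follows from their parts, since the TPM of Nfe2l2 was lower, and each numerator higher, in every 4-OI library. Among all genes tested, the TPM values of the groups were apart for 28.1%. The Nfe2l1 to Nfe2l2 ratio, 2.15 ± 0.14 and 2.25 ± 0.11 (SD, n = 4), did overlap. Ratios of transcripts are not ratios of proteins, and NRF2 in particular is set by its turnover.

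**Figure D5:**
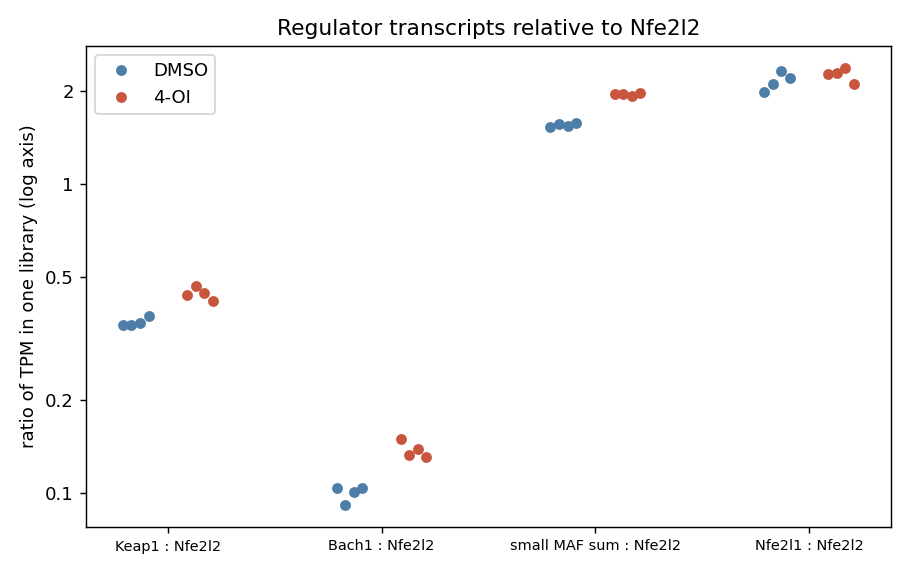
Ratio of TPM of Keap1, Bach1, the summed small MAF genes and Nfe2l1 to Nfe2l2 in each library, on a log axis, with DMSO in blue and 4-OI in red. The groups are apart for the first 3 ratios and overlap for Nfe2l1.

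Genes with the profile most like 5 of the members over the 8 libraries were found by the distance between mean-centred log2 CPM values among 9701 genes at 5 CPM or more. Nearest to Nfe2l2 were Scfd1, Ccdc6 and Cyb5r3 (distances 0.0479 to 0.0506), and nearest to Keap1 were Zfp710, Arpc1a and Nek4 (0.0478 to 0.074). For Bach1 they were Ctps2, Agpat3 and Lrp8 (0.0773 to 0.0928), and for Mafg they were Sox4, Zwint and Sgk1 (0.0659 to 0.069). Osgin1 had no neighbour as close: Shroom2 (0.236), Aox1 (0.339) and Pcx (0.427), with log2 fold changes of 1.94, 1.78 and 1.66. Likeness here mostly restates the size of the difference between the groups.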

How the data were processed

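Gene expression was measured by polyA RNA sequencing with paired-end reads, per the labels' protocols. STAR 2.7.8a, RSEM 1.3.3, cutadapt 2.3, MultiQC 1.7, FastQC 0.11.8 and build GRCm38 are listed without roles, per the submitters' processing notes. The sources used here state neither annotation release nor strand setting. The authors deposited expected counts (whole numbers throughout, used unrounded), TPM and FPKM values.

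Tests used edgeR 4.0.16 in R 4.3.3: filterByExpr (minimum count 10), TMM, then a quasi-likelihood F test (two-sided) on all 8 libraries without covariates, with calls at 0.05 after Benjamini-Hochberg adjustment over 13531 genes. Standard errors were derived from the F statistic; intervals are at 95%. Positions came from GENCODE M21 and promoter sequences from RefSeq. Implied length is the count per FPKM and total count, and it was added after the values had been seen. Named genes were the members, up to 3 called genes per partner list by size of change with untested ones, and the 3 nearest profiles for 5 members; any further gene was picked with its values in view, and some genes of the lists are not reported here. Members and lists were chosen with earlier results of these data known. Chi-square per degree of freedom between 2 libraries of a group was 1.90 to 4.79, above sampling noise, and each library counted once. Separate preparations of a single culture could also give such a spread, so it does not show that the cultures were separate. On simulated counts for the 13531 genes of this comparison, 28 of 50 changed genes were recovered at 1.15-fold and 30 of 50 at 1.3-fold. At 5 CPM or more these were 28 of 38 and 29 of 30. Of all 161 calls, 9 were false. Only 50 genes were changed at each fold, a far smaller share than the 38.8% called in the data, so recovery there may differ. Alternatives were DESeq2 1.42.0, 2 other scalings, no filter, a GC and length correction, a replicate block, each library left out, and limma 3.58.1 on log2(TPM + 1), log2(TPM + 0.1) and log2(FPKM + 1). Figures were drawn with matplotlib 3.10.9.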

Additional observations from a re-analysis of the deposited data

Results flagged for a closer look

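Among 78 groups of 4 values examined for these genes, 3 held a library whose gap to the next value was, as a part of the group's range, above Dixon's 95% critical value; chance flags about 1 in 20 groups. The implied transcript length of Osgin1 was 1235 bases in DMSO replicate 3, where the other DMSO libraries had 1710 to 1730 bases. The implied length of Nfe2l1 was 2590 bases in 4-OI replicate 4 against 2466 to 2485 bases in the others of that group. Btrc had 15.24 TPM in 4-OI replicate 1 against 14.61 to 14.64 TPM in the others of that group, a small step within a tight group.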

How the results depend on the processing

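The calls of Nfe2l2, Keap1, Bach1, Mafg and Osgin1 held, in the same direction, under all 17 alternatives run, and Nfe2l1, Maff and Mafk were called in none of them. Osgin1 ranged from 1.78 to 2.09 in log2 fold change, Mafg from 0.44 to 0.61, Bach1 from 0.32 to 0.41, Keap1 from 0.15 to 0.20 and Nfe2l2 from -0.14 to -0.11. Btrc was called in 12 of 17 (adjusted p from 0.00441 to 0.149) and Cul3 in 1 of 17 (0.00815 to 0.648). With the GC and length correction 2 of the 10 genes were lower, Cul3 joining Nfe2l2; the cause was not tested. Over all genes, 2607 were called higher and 2646 lower, against 1760 higher and 1620 lower by limma on log2(TPM + 1), 1750 and 1615 on log2(TPM + 0.1), and 1888 and 1535 on log2(FPKM + 1). Library totals without a factor gave 3021 higher and 2323 lower (56.5% of calls higher, against 49.6%). Leaving out 1 library at a time gave 2249 to 2499 higher and 2369 to 2666 lower. Replicate numbers did not pair the libraries (correlations of deviations 0.30, -0.10, 0.15 and -0.07 for the 4 numbers), and a fit with the replicate block called 2525 higher and 2618 lower and changed no call of the 10 genes. Depth limits the rare family members: 3 counts correspond to 0.0961 to 0.132 CPM.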
